A study of Mus musculus with 2 samples.

Results

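The squamous epithelial cells of the mouse esophagus before birth were examined at embryonic days 15 (E15) and 19 (E19). They were taken as the cells that the deposited annotation names Squamous Epithelial or Squamous Epithelial-2 and whose tag places them in the E15 or the E19 esophagus, and they number 187 of 7808 cells, 64 at E15 and 123 at E19. All cells came from wild-type C57BL/6 mice without treatment. Esophagus, gastro-esophageal squamocolumnar junction (GE-SCJ) and stomach were dissociated with collagenase, each region and stage received its own oligonucleotide tag, and all tags were run together as 1 droplet library in which unique molecular identifiers (UMIs) count RNA molecules. The series text gives 6 mice at E15, 2 at E19, 2 pups at day 2 and 3 adults at 8 weeks, pooled within a tag, whereas the methods speak of cells combined from 3 mice, and no cell carries the label of its mouse. Each stage was therefore 1 sample, no test between stages was possible, and the intervals given here are exact 95% intervals for counting error, which leave out the differences between mice and between cells.

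The esophagus starts as a simple tube of endoderm that shares its origin with the trachea and stomach, and its lining turns into a stratified squamous epithelium during the second part of gestation. Basal cells, which carry the transcription factor p63 (Trp63) and the keratins Krt5, Krt14 and Krt15, divide and sit on the basement membrane. Cells that leave this layer take up Krt13 and Krt4, the keratins of mucosal suprabasal cells, and later assemble a cornified envelope of small proline-rich and other cross-linked proteins.

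The cells carried the markers of their label. Levels are the summed UMIs of a gene divided by all UMIs of the group and scaled to 1000000 (CPM). Krt15 stood at 4247 CPM at E15 and 5656 CPM at E19, Trp63 at 268 and 167 CPM, and Sox2, a factor of the foregut epithelium, at 245 and 214 CPM. In the immune cells of the same library, which should lack these genes, Krt15 was at 24.4 CPM and Trp63 at 6.64 CPM. Krt5 was seen in 61 of 64 cells at E15 and in 115 of 123 cells at E19, and it stood at 912 CPM and 1095 CPM against 30.0 CPM in the immune cells. The cells were of like depth, with a median of 14214 UMIs per cell at E15 (1164 to 42601) and 12568 at E19 (949 to 57043). They made up 9.88% of the E15 esophagus (64 of 648 cells, Clopper-Pearson interval 7.69 to 12.4%) and, at E19, 12.1% with the first label and 0.304% with the second label of 988 cells.

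Some of the cells stood apart. Of the E15 cells 59 lay in deposited cluster 10 and 5 in cluster 7, and of the E19 cells 109 lay in cluster 10, 11 in cluster 7 and 3 in cluster 15. The 3 cells of cluster 15 are the E19 cells with the second squamous label. They held Krt13 at 21171 CPM, Krt7 at 15984 CPM and Krt19 at 8645 CPM, listed no UMI of Krt5, Krt14, Trp63, Sox2 or Cdh1, and carried Malat1 at 156206 CPM. Cluster 7 holds 231 of the 232 adult esophageal squamous cells. Col1a1, a fibroblast collagen, was at 303 CPM at E15 and 116 CPM at E19 in cluster 10, and at 141 CPM in the adult cells. The prenatal cells of cluster 7 had it at 3950 CPM at E15 and 2891 CPM at E19. Their mitochondrial share was 5.51% and 4.94%, against 2.06% and 1.99% over all squamous cells of each stage. In the E19 cells of cluster 7 Xist was at 3063 CPM and 4 Y-linked genes summed to 22.5 CPM, nearer to the adult squamous cells (2487 and 4.36 CPM) than to the E19 cells of cluster 10 (576 and 84.7 CPM). In the E15 cells of cluster 7 the values were 862 and 144 CPM, and in the E15 cells of cluster 10 they were 187 and 164 CPM. Krt14 was at 718 CPM in the E15 and 696 CPM in the E19 cells of cluster 7 (642 CPM in the adult). Krt19 was at 251 and 74.9 CPM there (47.0 CPM in the adult) and Krt13 at 1885 and 2494 CPM (27514 CPM). Single cells held much of the Krt14 and Krt13 counts of cluster 7. For Krt14, 1 cell held 39 of 40 UMIs at E15 and 53 of 93 at E19. For Krt13, 1 cell held 74 of 105 UMIs at E15 and 304 of 333 at E19. Across 10022 genes the profile of the E19 cells of cluster 7 gave r = 0.834 with the E15 and 0.825 with the E19 cells of cluster 10, 0.801 with E19 and 0.798 with E15 esophageal stroma, and 0.767 with adult esophageal squamous cells. That of the E15 cells of cluster 7 gave 0.758 with the E15 cells of cluster 10, 0.746 with E15 stroma and 0.667 with the adult cells. These values describe genes of 1 library. Whether the tags of the cluster 7 cells are right was not tested. Values without the cells of clusters 7 and 15 are given for the results that rest on them most.

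Of 5 tested suprabasal keratins 3 were at least 2-fold higher at E19 and 0 lower, with a median log2 ratio of 2.13, beside 4.21% higher and 3.4% lower and a median of −0.23 over all genes tested, which are those with 100 or more UMIs. Krt13 stood at 1772 CPM at E15 (1690 to 1857) and at 8453 CPM at E19 (8316 to 8592), a log2 ratio of 2.25 (2.18 to 2.33), with 89.3 CPM in immune cells. Krt4, the partner keratin of Krt13, went from 1198 to 5249 CPM (log2 2.13, 2.04 to 2.22) and Krt6a, a keratin of stressed and suprabasal epithelium, from 107 to 659 CPM (log2 2.61, 2.32 to 2.91). Leaving out the cells of clusters 7 and 15 gave 2.27 for Krt13, 2.31 for Krt4 and 2.48 for Krt6a. In the alternatives other than the choice of cells with more Krt5 than Krt13, Krt13 gave log2 ratios of 1.47 to 2.51. Krt4 gave 1.16 to 2.35 in them, and Krt6a 2.28 to 2.88. The other 2 tested, Krt17 and Krt10, went from 437 to 372 CPM (log2 −0.23) and from 72.3 to 39.8 CPM (log2 −0.86, and −0.08 in cluster 10). Basal keratins were closer between the stages, with log2 ratios of 0.26 (0.15 to 0.38) for Krt5, 0.41 (0.36 to 0.47) for Krt15 and 0.51 (0.19 to 0.84) for Krt14. Krt14 varied with the cells taken. Its log2 ratio was 1.32 (0.98 to 1.67) in cells with more Krt5 than Krt13, where it went from 136 to 343 CPM, and −0.050 without the 10% of cells richest in markers of other cell types. All ratios are E19 over E15 with 1 UMI added to each sum.

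The promoter of Krt13 is shown since this keratin divides the cells in what follows. The 250 bases before its annotated start lie on the minus strand of chromosome 11, 100121567 to 100121816 in GRCm38.p6 (RefSeq), and the capitals mark a match to TGANTCA, 196 to 190 bases before the start. AP-1 factors are known to bind these letters with C or G at the open position, which here holds another base. RefSeq gives 2 windows for Krt13, of which the first is shown:
Krt13: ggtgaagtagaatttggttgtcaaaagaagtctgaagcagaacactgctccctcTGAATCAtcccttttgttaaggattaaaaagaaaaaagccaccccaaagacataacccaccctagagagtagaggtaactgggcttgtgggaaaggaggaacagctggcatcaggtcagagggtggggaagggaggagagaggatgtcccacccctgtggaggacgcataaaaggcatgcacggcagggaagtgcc
The motif reads the same on both strands and occurs in 1856 of 27025 promoter windows of this length (6.87%). The letters TATAAA, searched on both strands, are not in this window and occur in 12.97% of windows. Of the 12 genes whose counts followed Krt13 most closely across E19 cells (below), 7 had a window, and TGANTCA and TATAAA were each present in 1 of these 7.

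Krt13 was unevenly spread over the cells at both stages. At E15 the cells held a median of 1.45 Krt13 UMIs per 10000 (quartiles 0.727 and 3.48), and the highest cell held 636. At E19 the median was 16.2, the quartiles were 1.90 and 135, and the highest cell held 369. The lower quartiles thus lay nearer to each other than the upper quartiles. Krt13 stood at 89.3 CPM in the immune cells, which should lack it. More Krt13 than Krt5 UMIs were counted in 13 of 64 cells at E15 (20.3%, 11.3 to 32.2%), with 2 further cells equal, and in 66 of 123 cells at E19 (53.7%, 44.4 to 62.7%). This share compares 2 genes within a cell, so that depth weighs less on it.

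**Figure D1:**
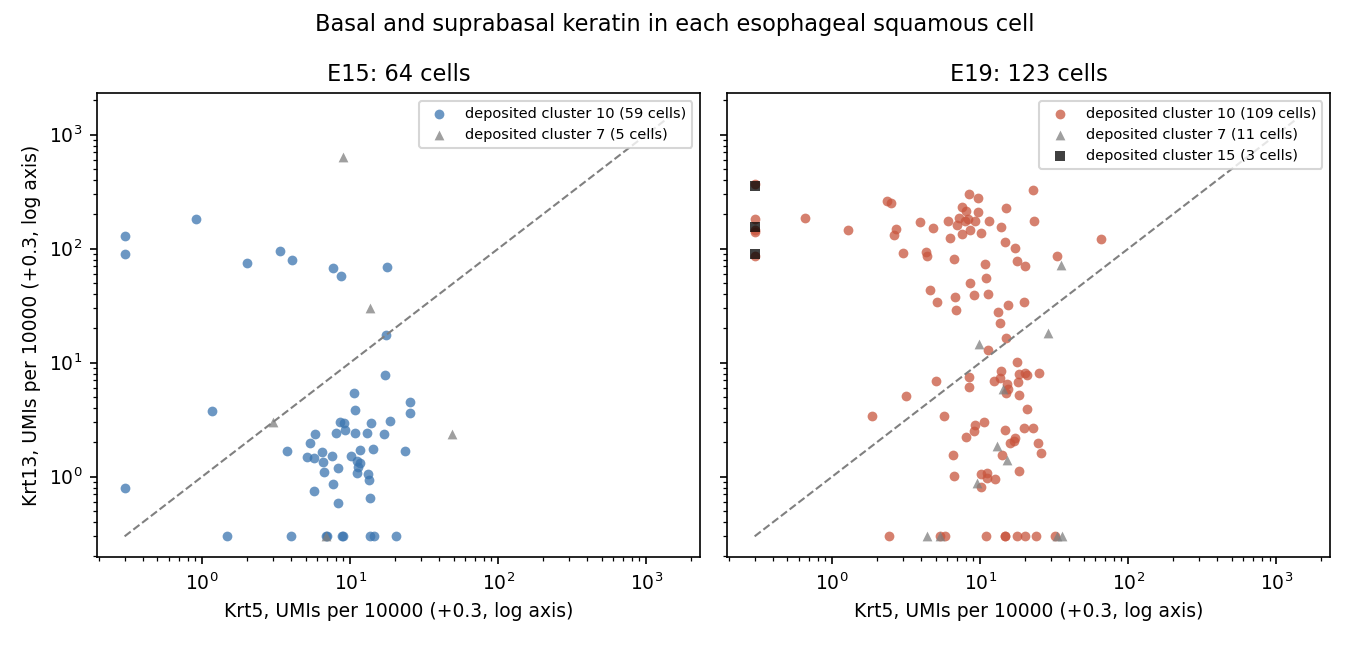
Each point is 1 esophageal squamous cell at E15 (left) or E19 (right), by its Krt5 (x axis) and Krt13 (y axis) UMIs per 10000 on log axes after adding 0.3, with the deposited cluster as colour and shape and a dashed line where both are equal. At E15 13 of 64 cells lie above the line, at E19 66 of 123.

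The genes that followed Krt13 from cell to cell at E19 were, in order, Krt4 (Spearman rho 0.825), Gsto1 (0.806), Hopx, Hspb1, Anxa1, Gsta4, S100a11, Calml3, Upk1b, Lypd2, Asprv1 and Pdzk1ip1 (0.711), over 103 cells thinned to 5000 UMIs and 2933 genes. The list holds a keratin, detoxification enzymes (Gsto1 and Gsta4), the small heat shock protein Hspb1, the homeodomain protein Hopx, and calcium binders (Anxa1, S100a11 and Calml3). Krt5 followed Ptma (rho 0.517), Krt14 (0.498), the growth factor gene Pdgfa (0.443), the tubulin-binding protein gene Stmn1 (0.432) and Krt17 (0.425) most closely, and ran against Krt13 (rho −0.389). The points are cells of 1 library, so these values describe it.

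Across the transcriptome, 3943 genes reached 100 UMIs when the stages were added up. Of these 300 were at least 2-fold apart (7.61%), 166 (4.21%) higher at E19 and 134 (3.4%) lower, and the median log2 ratio was −0.23. A library size counted without ribosomal protein, hemoglobin and mitochondrial genes moved the median to −0.15 and the split to 184 higher and 88 lower. With cluster 10 alone, an alternative added after seeing the data, 138 of the 166 and 112 of the 134 genes were still at least 2-fold apart the same way. In cells with more Krt5 than Krt13, 49 at E15 and 57 at E19, 40 of the 166 and 35 of the 134 were, which was likewise looked at after seeing the data. Fewer UMIs stand behind these cells, and their median log2 ratio over tested genes was −0.10. Of the 166 higher genes, 18 had over 50% of their E19 UMIs in the 3 cells with the second label.

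**Figure D2:**
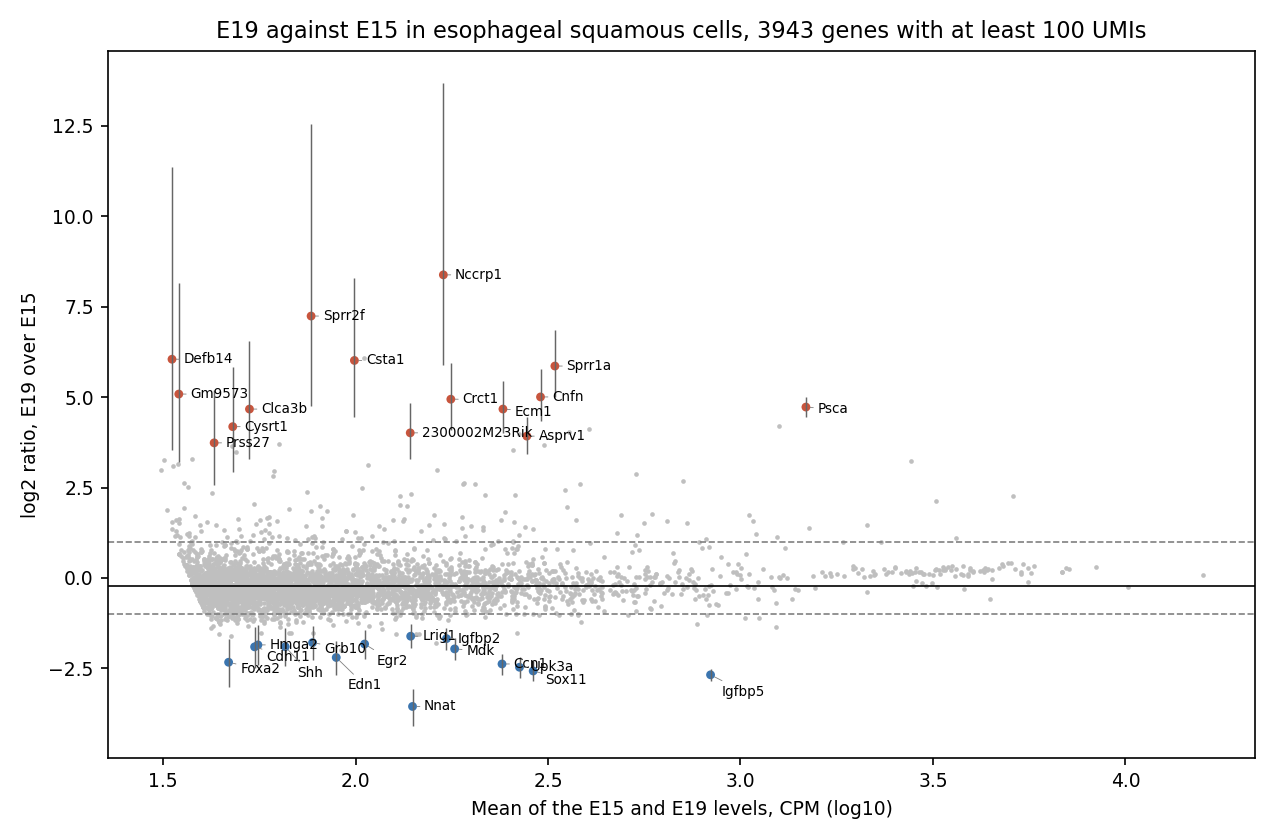
The log2 ratio of E19 over E15 (y axis) against the mean level of the stages in CPM (log10, x axis) for 3943 genes. Coloured points with 95% counting intervals are the 15 named genes in each direction, dashed lines mark 2-fold and the solid line the median of −0.23. Nccrp1, Sprr2f and Defb14 had no UMI at E15, so that their plotted ratios depend on the UMI added.

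Among the 15 named genes with the largest ratios toward E19, 5 belong to the list of cornified envelope and late differentiation genes (Csta1, Sprr1a, Cnfn, Crct1 and Ecm1). That list holds 24 of the 3943 genes tested. These 5 members had 2 to 17 UMIs at E15, so they reached the count minimum only through E19. Cnfn (cornifelin, a cornified envelope protein) went from 17.3 to 587 CPM (log2 5.004, 4.34 to 5.76), Sprr1a (a small proline-rich envelope precursor) from 10.2 to 649 CPM (log2 5.86, 5.01 to 6.86) and Asprv1 (a protease that cuts profilaggrin) from 33.6 to 524 CPM (log2 3.92, 3.43 to 4.46). Much of the Cnfn and Sprr1a counts came from few cells, with 80.6% and 73.0% of their E19 UMIs in the 3 cells with the second label, against 47.4% for Asprv1. With cluster 10 alone the log2 ratios were 4.31 for Cnfn, 3.96 for Sprr1a and 3.30 for Asprv1, and without the second label alone they were 2.69, 4.02 and 3.04. Averaged over the cells' own CPM, Cnfn gave 1.43 and Asprv1 2.79.

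Psca, a surface protein of stratified epithelia, stood at 107 CPM at E15 and 2852 CPM at E19 (log2 4.72, 4.45 to 5.02), and 73.1 CPM in immune cells, so that the E15 level was near the background. The second-label cells held 45.8% of its E19 UMIs, and its log2 ratio was 3.95 in cluster 10 and 0.18 in cells with more Krt5 than Krt13. Csta1 (a cystatin of the envelope) went from 2.04 to 197 CPM (log2 6.01, 4.45 to 8.30) and Ecm1 from 17.3 to 466 CPM (log2 4.67, 4.00 to 5.43), with log2 ratios of 4.11 and 2.29 in cluster 10. Cysrt1 (log2 4.18, 2.93 to 5.83), 2300002M23Rik (4.01, 3.30 to 4.83), Gm9573 (5.08, 3.20 to 8.15) and the protease gene Prss27 (3.74, 2.58 to 5.21) gave 4.28, 3.61, 4.31 and 2.84 with cluster 10. Averaged over the cells' own CPM, Cysrt1 gave 2.07 and Prss27 1.96, so the size of these ratios varied with how the cells were weighted, in the same direction.

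The counts of 4 further named genes came almost wholly from the 3 second-label cells. Sprr2f, Defb14 (a defensin), Crct1 (encoded among the envelope genes) and Clca3b had 99.6%, 98.2%, 97.1% and 94.3% of their E19 UMIs there, and in cluster 10 Crct1 and Clca3b had log2 ratios of 1.37 and 0.74, while the E19 count was 1 UMI for Sprr2f and 2 for Defb14. Without these 3 cells alone Crct1 gave −0.044. Sprr2f and Defb14 had no UMI at E15, which put E19 at least 50.2-fold and at least 21.8-fold higher against a floor of 3 counts in the E15 group. Over all cells the log2 ratio was 4.94 (4.09 to 5.95) for Crct1 and 4.67 (3.29 to 6.56) for Clca3b. Nccrp1 was also without UMI at E15 and at 338 CPM at E19 (at least 111-fold higher against the same floor), with 91.0% of UMIs in these 3 cells and a UMI in 13 cells in all, and in cluster 10 alone 52 UMIs were left at E19, at least 10.5-fold higher against 3 counts.

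Of the list of cornified envelope and late differentiation genes, 24 of 41 were tested, and 21 were at least 2-fold higher at E19 and 0 lower (4.21% and 3.4% of all genes tested), with a median log2 ratio of 2.03 beside −0.23. Members such as Csta1, with 2 UMIs at E15 and 336 at E19, and Tgm3, with 8 and 202, reached the count minimum only through E19, and members below it, such as Sprr2a3 with 42 and 32 UMIs, are left out. The counts of this list, and of the others, are a description for this reason. In cells with more Krt5 than Krt13 the median was 0.35. Early members with high counts include Sfn (the epithelial 14-3-3 protein; 520 and 1109 CPM, log2 1.09), Anxa1 (a membrane-binding annexin; 1229 and 2457 CPM, just under 2-fold) and Dmkn (dermokine; 109 and 589 CPM, log2 2.42). The cross-linking enzymes of the envelope were low at E15, with Tgm1 at 20.4 CPM and Tgm3 at 8.14 CPM, and stood at 88.3 and 118 CPM at E19. The log2 ratio of Tgm3 was 3.70, and 1.05 to 5.24 in the alternatives other than the choice of cells with more Krt5. The envelope scaffolds Ppl and Evpl had log2 ratios of 1.41 and 2.00. Mal, a membrane proteolipid of differentiated epithelium, went from 128 to 944 CPM (log2 2.87), Calml3 from 144 to 567 CPM (log2 1.97) and the galectin gene Lgals3 from 52.9 to 328 CPM (log2 2.61). Sbsn (2.32), Lypd3 (1.86), the protease inhibitor genes Cstb (1.24) and Spink5 (1.17), Lgals7 (1.55) and Emp1 (1.41) complete those at least 2-fold higher, and the last 2 gave 0.55 and 0.94 in cluster 10. Taken as the average over the cells' own CPM, Dmkn gave 0.93, Sfn 0.78, Sbsn 0.63 and Lgals7 0.078, and with thinned cells Ppl gave 0.79 and Spink5 0.87, all short of 2-fold. Sprr3 had a log2 ratio of 2.95 (2.17 to 3.85), but it was −0.12 when the CPM was taken per cell and then averaged, which gives each cell equal weight.

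Of the 5 tested simple keratins, which are known from glandular and bladder linings, 3 were at least 2-fold higher (4.21% of all genes tested), with a median log2 ratio of 1.14, and 0.76 in cluster 10. Krt7 went from 189 to 1227 CPM (log2 2.69, 2.47 to 2.91), with 39.7% of its E19 UMIs in the second-label cells and 2.07 in cluster 10. Krt19 went from 775 to 1707 CPM (log2 1.14), Krt8 from 508 to 826 CPM (log2 0.70), and its partner Krt18 from 248 to 238 CPM. Krt23 (log2 3.49) had 85.8% of its E19 UMIs in the second-label cells and a log2 ratio of 0.56 in cluster 10. In cells with more Krt5 than Krt13 the list median was 0.42.

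Uroplakins are the plaque proteins of the bladder surface. Upk3a was at 452 CPM at E15 and 81.3 CPM at E19 (log2 −2.47, −2.75 to −2.19). At E15 its 444 UMIs lay in 12 of 64 cells, 430 of them in 11 cells that did not have more Krt5 than Krt13. The other tested members went the other way, Upk1b from 87.5 to 432 CPM (log2 2.29, 1.97 to 2.63), Upk2 from 50.9 to 209 CPM (log2 2.02, 1.59 to 2.47), and Upk3bl from 475 UMIs in 54 of 64 cells to 2774 UMIs in 111 of 123 cells. Upk3b had 1 and 44 UMIs and Upk1a 0 and 4, below the count minimum. In the GE-SCJ squamous cells Upk3a was at 23.2 CPM at E15 and 29.7 CPM at E19.

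Defense and detoxification genes were among the more abundant genes that differed. Of 14 tested S100 and mucosal defense genes (32 listed), 8 were at least 2-fold higher and 0 lower (4.21% and 3.4% over all genes tested), with a median log2 ratio of 1.16, and 0.36 in cells with more Krt5 than Krt13. S100a6, a calcium-binding protein, went from 2294 to 4950 CPM (log2 1.11), and the GPI-anchored protein gene Ly6d from 378 to 1078 CPM (log2 1.51). S100a10 (1.22), S100a14 (1.52), S100a1 (1.91) and the mucin gene Muc4 (1.48, and 0.71 with thinned cells) were higher too, as was Psca. Ltf (lactoferrin) had a log2 ratio of 6.09 (4.53 to 8.38), with 94.1% of its E19 UMIs in the second-label cells and 157 CPM in immune cells against 208 CPM at E19. Its log2 ratio ran from 2.12 to 6.67 in the alternatives other than the choice of cells with more Krt5. Of 19 tested detoxification and redox genes, 4 were higher, Gsto1, Gsta4, Cyp2f2 and Cbr2, and 1 lower, Txnrd1, and the median was 0.11. Gsto1, a glutathione transferase of the omega class, went from 533 to 5018 CPM (log2 3.23, 3.10 to 3.36), with 2.71 in cluster 10 and 0.19 in cells with more Krt5 than Krt13. Choosing cells by Krt13 left out cells rich in Gsto1. At E19 Gsto1 stood at 8482 CPM in cells with more Krt13 than Krt5, against 320 CPM in those with more Krt5. Cyp2f2, a cytochrome P450 enzyme, went from 545 to 1611 CPM (log2 1.56, 1.43 to 1.70). It gave 1.28 in cells with more Krt5 than Krt13, so its difference stood also among those cells.

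Transcription factors of squamous cells were mostly within 2-fold. Of 22 tested, 4 were at least 2-fold higher and 1 lower (4.21% and 3.4% of all genes tested), and the median log2 ratio was −0.13. The higher ones were Hopx (43.8 and 575 CPM, log2 3.68, 3.25 to 4.15), Zfp750 (1.15), Elf3 (1.08) and Grhl3 (1.03), of which the last 3 are known in terminal differentiation and barrier formation, and the lower one was Klf6 (506 and 250 CPM). Except for Hopx each of these fell short of 2-fold in at least 1 alternative, at 0.98 for Zfp750, 0.88 for Elf3, 0.71 for Grhl3 and −0.93 for Klf6. Klf5 stood at 700 and 799 CPM and Pax9 at 194 and 188 CPM. Trp63, the master regulator of stratified epithelia, had a log2 ratio of −0.68 (−0.92 to −0.43), and −0.28 in cells with more Krt5 than Krt13.

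Of 9 tested desmosome genes 3 were higher, Dsc2 (log2 1.35), Pkp1 (1.29) and the cadherin gene Dsg3 (109 and 232 CPM, log2 1.08), 1 was lower, Pkp4 (−1.05), and the median was 0.82, beside 4.21% higher and 3.4% lower of all genes tested. Each of these 4 fell short of 2-fold in an alternative, Dsc2 at 0.996, Pkp1 at 0.75, Dsg3 at 0.96 and Pkp4 at −0.85. Perp, a tetraspan desmosome component, went from 573 to 1012 CPM (log2 0.82). Of 7 tested claudin and tight junction genes 1 was higher, Cldn3 (67.2 and 153 CPM, log2 1.17), with a median of 0.64, and −0.44 in cells with more Krt5 than Krt13. Of 9 genes of cadherin adhesion 2 were higher, the tetraspanin gene Cd9 (326 and 966 CPM, log2 1.56) and Nectin4 (1.25), while Cdh1 (E-cadherin) stood at 205 and 252 CPM and Epcam at 432 and 421 CPM. The 9 tested hemidesmosome genes, which anchor basal cells, all lay within 2-fold (median −0.19), with Col17a1 at 154 and 168 CPM and Dst at 412 and 310 CPM. In the basement membrane list 2 of 13 were lower, Npnt (−1.17) and Col4a2 (−1.02, and −0.49 averaged over the cells' own CPM), beside 3.4% of all tested genes.

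Nnat, Igfbp5 and Sox11 had the largest ratios toward E15, and their UMIs were spread over many cells. Nnat, an imprinted membrane protein gene, went from 260 CPM at E15 to 21.6 CPM at E19 (log2 −3.55, −4.08 to −3.06) and had a UMI in 46 of 64 and 24 of 123 cells. Sox11, a factor of progenitor cells, went from 496 to 83.1 CPM (log2 −2.57, −2.85 to −2.30) in 57 and 58 cells. Igfbp5, which binds insulin-like growth factors, went from 1446 to 226 CPM (log2 −2.68, −2.84 to −2.51). These ratios also stood in cells with more Krt5 than Krt13, at −2.89 for Nnat, −1.90 for Sox11 and −2.18 for Igfbp5. Igfbp5 stood at 1248 and 201 CPM in the esophageal stroma.

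Besides Upk3a, described above, the other named genes in this direction lay between −2.38 and −1.61. They were the matrix protein gene Ccn1 (403 and 77.2 CPM), the endoderm factor Foxa2 (78.4 and 15.2 CPM), the peptide endothelin 1 (Edn1; 147 and 31.6 CPM), the heparin-binding growth factor Mdk (288 and 73.7 CPM), Cdh11 (86.5 and 22.8 CPM), Shh (104 and 27.5 CPM), the fetal chromatin protein Hmga2 (87.5 and 24.0 CPM), Egr2 (165 and 46.2 CPM), Grb10 (120 and 34.5 CPM), Igfbp2 (263 and 81.9 CPM) and Lrig1 (210 and 68.5 CPM), a receptor inhibitor. In cells with more Krt5 than Krt13 each of these 11 genes had a log2 ratio of −1.17 or below. In cluster 10 they ran from −2.38 for Ccn1 to −1.57 for Lrig1. In the E15 esophageal stroma Mdk (1099 CPM), Ccn1 (716 CPM), Cdh11 (558 CPM) and Grb10 (495 CPM) stood above the squamous cells, while Shh (0.786 CPM), Edn1 (1.57 CPM) and Foxa2 (2.89 CPM) were near 0. The fibroblast markers summed to 1872 CPM at E15 and 1360 CPM at E19 in the squamous cells, and the part of stromal RNA in these 4 ratios was not tested.

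Lists of fetal genes had negative medians. Of all genes tested 3.4% were lower at E19. Of 8 tested fetal RNA-binding and chromatin genes 5 were at least 2-fold lower and 0 higher, namely Sox11, Hmga2, Mdk, Ezh2 (the histone H3 lysine methyltransferase; 156 and 61.4 CPM, log2 −1.34) and Bex4 (−1.23), and the median was −1.28, or −0.73 in cells with more Krt5 than Krt13. Among 8 tested imprinted and fetal growth genes 2 were lower, Grb10 and Peg3 (174 and 79.6 CPM, log2 −1.13). H19 and Igf2, which share a locus, were nearer to even at 4191 and 3425 CPM (log2 −0.29) and at 932 and 670 CPM (log2 −0.48). Of the 5 tested columnar and anterior endoderm factors 3 were lower, Foxa2, Sox4 (452 and 222 CPM, log2 −1.03) and Sox9 (133 and 62.6 CPM, log2 −1.09), with a median of −1.03, while Foxa1 stood at 99.7 and 67.3 CPM. The stomach factors Gata4, Gata6 and Barx1 were below the count minimum, with 8, 15 and 9 UMIs at E15.

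**Figure D3:**
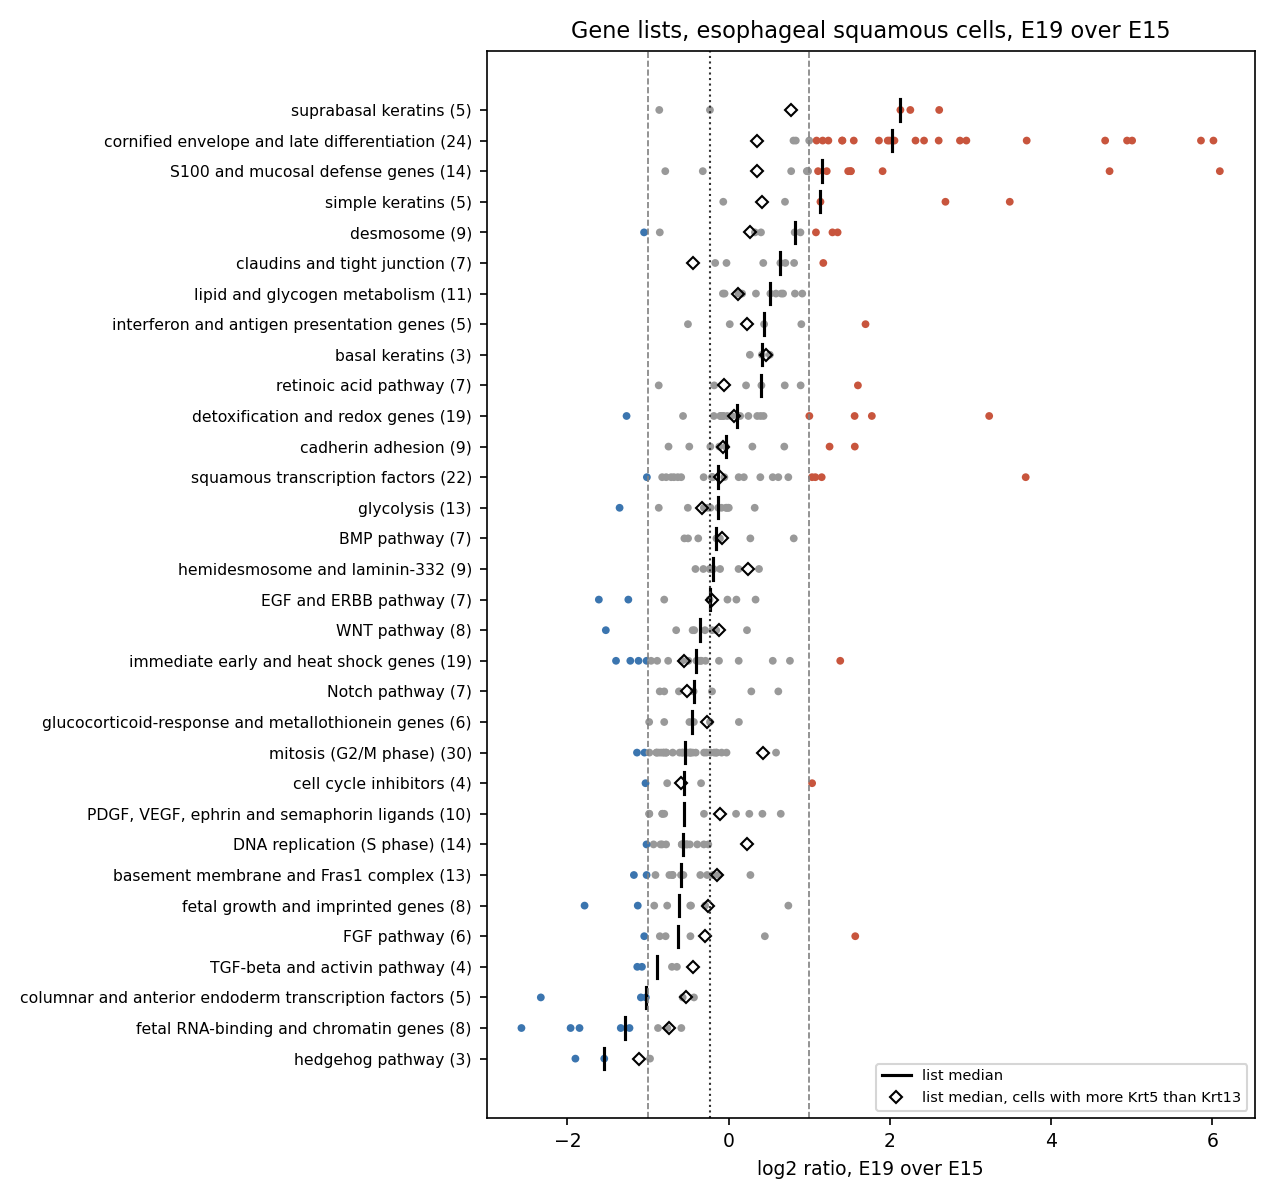
Each point is 1 tested gene of a list by its log2 ratio of E19 over E15 (x axis), coloured where at least 2-fold apart. Black bars are list medians, open diamonds the medians in cells with more Krt5 than Krt13, the dotted line the median of all tested genes (−0.23) and the numbers in brackets the tested genes. Cornified envelope genes have a median of 2.03 and hedgehog genes of −1.54.

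Among signalling pathways hedgehog had the lowest median. Shh, the ligand that the early foregut epithelium releases, was at 104 CPM at E15 (36 of 64 cells) and at 27.5 CPM at E19 (30 of 123 cells), a log2 ratio of −1.90 (−2.43 to −1.39). Ptch1, which is both the receptor and a target of the pathway, went from 214 to 73.1 CPM (log2 −1.54, −1.87 to −1.22), and Smo, the signal transducer, from 87.5 to 44.5 CPM (log2 −0.97, −1.44 to −0.52). Shh and Ptch1 gave −1.35 and −1.12 in cells with more Krt5 than Krt13. These were the only 3 of 14 listed genes with enough counts, and 2 of them were at least 2-fold lower, beside 3.4% of all genes tested.

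The remaining pathways had 2 or fewer genes apart, beside 7.61% of all tested genes, and with lists this short single genes set the share. WNT had 1 of 8 lower, the receptor gene Fzd3 (115 and 39.8 CPM, log2 −1.52), and the ligand gene Wnt4 stood at 521 and 611 CPM. The 7 BMP genes and the 7 Notch genes all lay within 2-fold, with medians of −0.15 and −0.44, and the Notch target Hes1 went from 752 to 416 CPM (log2 −0.85). Of 6 FGF genes Fgfbp1, which releases bound ligand, was higher (66.2 and 199 CPM, log2 1.57) and the inhibitor Spry1 lower (−1.05), with the receptor Fgfr2 at −0.78. The EGF list had 2 of 7 lower, the inhibitors Lrig1 and Errfi1 (−1.24), and the TGF-beta list 2 of 4, Tgfbr1 (−1.13) and Skil (−1.08). In the list of PDGF, VEGF, ephrin and semaphorin genes, which holds some ephrin receptors, 10 of 35 were tested and 0 were apart, with a median of −0.55 and Pdgfa and Efnb2 at −0.98 and −0.99.

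At E19 the cells with UMIs of 2 markers of division were found among those with more Krt5. After thinning each cell to 5000 UMIs, which left 58 cells at E15 and 103 at E19, 7 (12.1%, 4.99 to 23.3%) and 10 (9.71%, 4.75 to 17.1%) had a UMI of both Mki67 and Top2a, markers of dividing cells. The intervals overlap widely. With 2 UMIs of each gene asked for, 5 (8.62%) and 3 (2.91%) cells were left. At E19 all 10 were among the 47 cells with more Krt5 than Krt13 (21.3%, 10.7 to 35.7%), and 0 were among the other 56 cells, which allows a share of cells with both UMIs at this depth of up to 5.36% by a floor of 3 counts and 6.38% by the Clopper-Pearson interval. At E15 6 of 46 cells with more Krt5 (13.04%, 4.94 to 26.3%) and 1 of 12 others had both. By the deposited phases, 60 of the 66 other E19 cells were in G1, 3 in S and 3 in G2/M, against 21, 23 and 13 of the 57 cells with more Krt5. At E15 26, 15 and 8 of the 49 cells with more Krt5 and 8, 3 and 4 of the 15 others were in these phases, about the same share in G1. For comparison, the share thinned the same way was 21.3% in the immune cells, 15.2% in the neural cells and 25.7% in the adult squamous cells.

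Both cell cycle lists had negative medians over all cells and positive ones in the cells with more Krt5. Of 14 tested replication genes 1 was at least 2-fold lower, Nasp (log2 −1.02), and of 30 mitotic genes 2 were, Tpx2 (−1.04) and Kif23 (−1.14), with medians of −0.56 and −0.54. Of all tested genes 3.4% were lower, and the shares of these lists rest on 1 and 2 genes. In cells with more Krt5 than Krt13 the medians were 0.23 and 0.43. There 5 mitotic genes were at least 2-fold higher and 0 lower, and 0 replication genes were apart. Over all genes in these cells, with the count minimum applied anew, 28 of 2266 were higher and 33 lower. Top2a went from 290 to 156 CPM over all cells (log2 −0.89) and gave 0.32 in the cells with more Krt5. Among inhibitors of the cycle Cdkn1a was higher (154 and 317 CPM, log2 1.04), Btg2 lower (−1.03) and Cdkn1c within 2-fold (−0.76).

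Few genes of the remaining groups were at least 2-fold apart. The 79 oxidative phosphorylation genes had a median of −0.04 and the 81 ribosomal protein genes one of 0.18, with 0 of either list 2-fold apart, and ribosomal protein genes made up 25.3% of UMIs at E15 and 29.1% at E19. In glycolysis 1 of 13 was lower, Ldhb (−1.35), which is near the 7.61% of all tested genes that were apart. The lipid list had 0 of 11 apart, but 9 of 11 above 0 and a median of 0.52, beside −0.23 over all genes tested. Its fatty acid carrier gene Fabp5 stood at 942 and 1666 CPM. Of the 6 tested glucocorticoid-response and metallothionein genes 0 were apart (median −0.46), with Mt2 at −0.99. Of 5 interferon and antigen presentation genes 1 was higher, H2-D1 (27.5 and 91.9 CPM), and the median of 0.44 was 0.13 in cluster 10.

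Immediate early genes are known to respond to tissue dissociation. Of 19 tested immediate early and heat shock genes 4 were at least 2-fold lower, Egr1 (1407 and 648 CPM, log2 −1.12), Nr4a1 (−1.40), Atf3 (−1.22) and Jun (−1.02), and 1 was higher, Hspb1 (833 and 2175 CPM, log2 1.38), beside 3.4% and 4.21% of all genes tested. In the GE-SCJ squamous cells of the same stages Egr1, Jun and Atf3 had log2 ratios of 0.32, 0.32 and 1.59. The part of tissue handling in these values was not tested.

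Beyond birth the genes took different courses. In the squamous cells of the pup and adult esophagus Krt13 stood at 3711 and 27514 CPM and Krt4 at 1052 and 18750 CPM, so the adult was highest and E19 next for both. E15 was lowest for Krt13, and the pup for Krt4, whose E15 level of 1198 CPM was close. Psca and Gsto1 were highest in the pup, at 29952 and 23179 CPM, and at 66.4 and 740 CPM in the adult. Of the 85 pup squamous cells 29 carry the second label. Igf2 stood at 593 CPM in the pup and 15.6 CPM in the adult, after 670 CPM at E19, and H19 at 3219 and 339 CPM, after 3425 CPM. Sox11 (17.5 and 5.30 CPM), Nnat (8.23 and 1.25 CPM) and Shh (33.9 and 2.18 CPM) were below their E15 levels in both, and Upk3a had no UMI. As whole profiles, the E19 cells stood closer to the E15 cells (r = 0.931) than to the pup (0.869) or adult (0.851) cells.

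**Figure D4:**
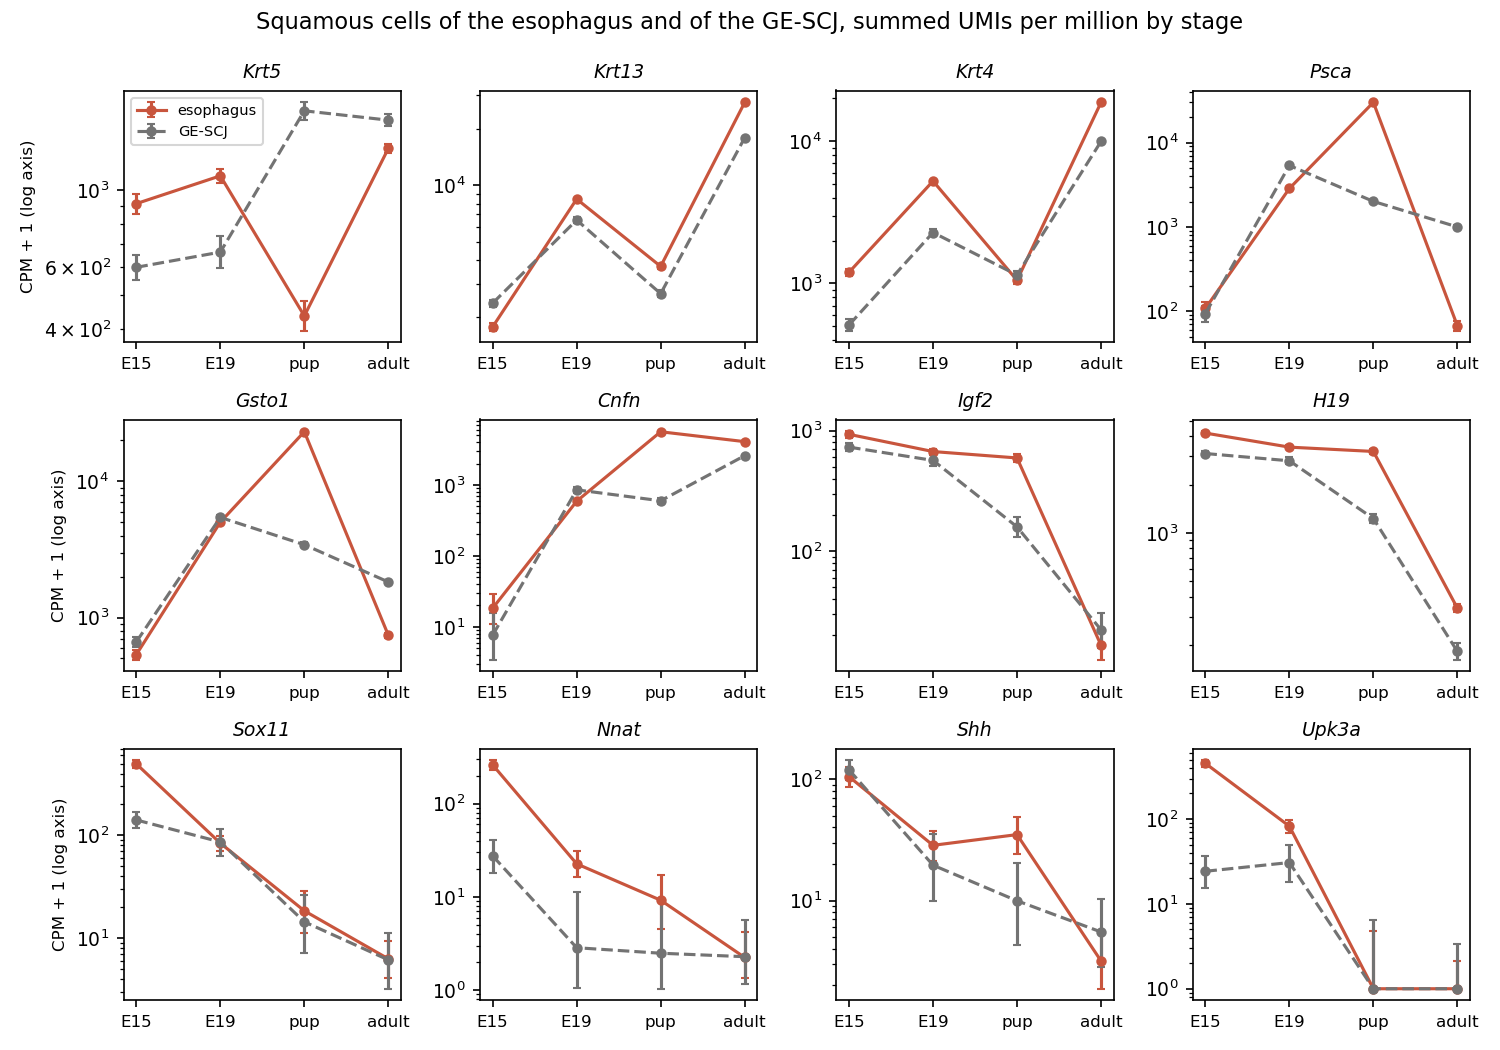
Levels of 12 genes in squamous cells of the esophagus (solid) and the GE-SCJ (dashed) at E15, E19, pup and adult, in CPM + 1 on log axes with 95% Poisson intervals for counting error, many smaller than the symbols. Each point is 1 pooled sample. Krt13 in the esophagus runs from 1772 CPM at E15 to 27514 CPM in the adult, and Nnat from 260 to 1.25 CPM.

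The squamous cells of the GE-SCJ, which come from other cells of the same stages, gave a second reading of the stage ratio. They number 47 at E15 and 34 at E19, of which 4 have the second label. Of their 2125 tested genes 139 (6.54%) were at least 2-fold higher at E19 and 140 (6.59%) lower. Of the 166 genes higher in the esophagus 96 were tested there, and 67 were at least 2-fold higher and 1 lower, with a median log2 ratio of 1.38. Of the 134 lower genes 54 were tested, and 16 were at least 2-fold lower and 3 higher, with a median of −0.50, against −0.17 over all their tested genes. Psca (log2 5.83), Gsto1 (3.04), Krt4 (2.16) and Krt13 (1.47) were among the former and Mdk (−3.01), Shh (−2.55) and Hmga2 (−2.01) among the latter, whereas Ccn1 was at 0.82 (0.35 to 1.28) there, and Sox11 (−0.70) and Igfbp5 (−0.76) were within 2-fold. Nnat had too few UMIs to be tested there, 24 at E15 and 1 at E19, as did Cdh11, with 3 and 9. In esophageal stromal cells 171 of 9225 genes (1.85%) were higher and 121 (1.31%) lower, and these shared 9 of the 76 higher and 8 of the 127 lower genes tested in both. Of the named lower genes, Igfbp5 (−2.64), Hmga2 (−1.87), Egr2 (−1.63), Sox11 (−1.25) and Ccn1 (−1.19) were at least 2-fold lower in the stroma as well. Whether these shared differences belong to the tissue or to the mice of a tag cannot be told apart.

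**Figure D5:**
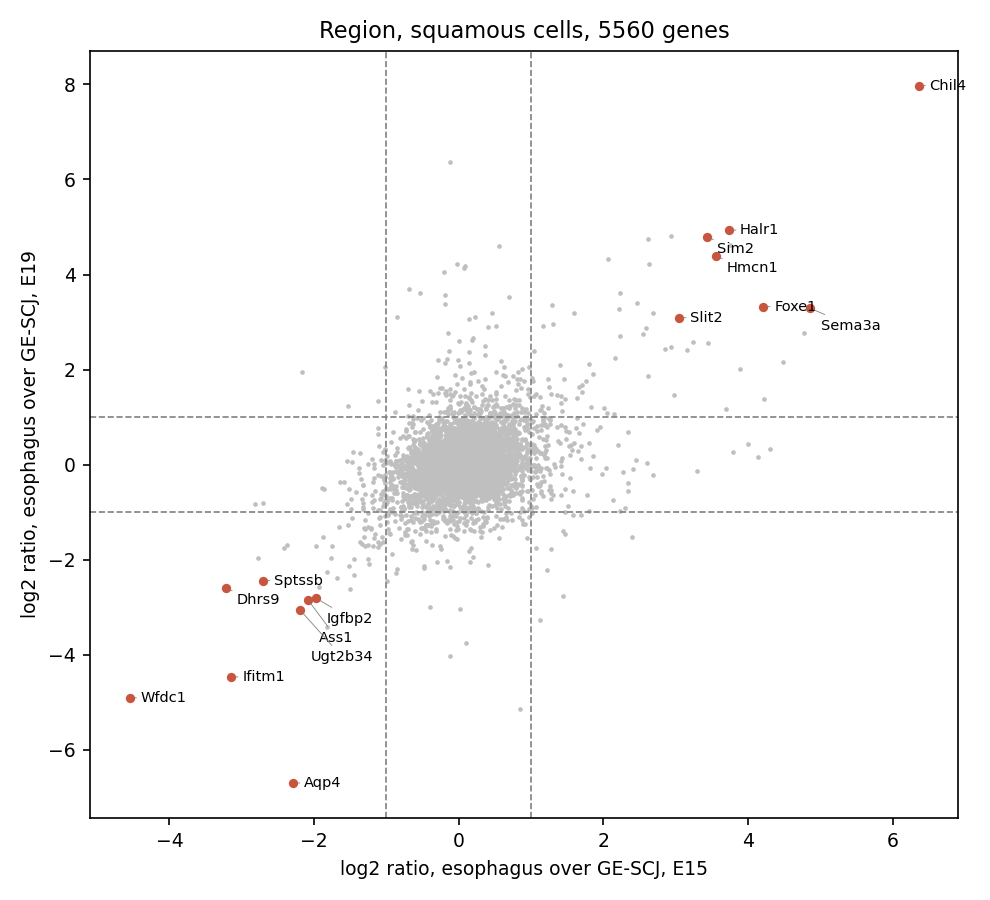
Log2 ratios of esophageal over GE-SCJ squamous cells at E15 (x axis) and E19 (y axis) for 5560 genes, with the named genes coloured and dashed lines at 2-fold. Foxe1 lies at 4.21 and 3.32 and Ifitm1 at −3.14 and −4.46.

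Against the GE-SCJ squamous cells, 69 of 5560 genes (1.24%) were at least 2-fold higher in the esophagus at both stages and 52 (0.935%) lower. The E15 profiles of the regions were close (r = 0.946), as were those of E19 (0.927). Foxe1, a forkhead factor of the anterior foregut, was at 183 CPM in the esophagus and 8.85 CPM in the GE-SCJ at E15 (log2 4.21, 3.25 to 5.36) and at 148 and 12.99 CPM at E19 (log2 3.32, 2.32 to 4.55). Sim2, also a transcription factor, was at 70.2 and 5.53 CPM at E15 (log2 3.42, 2.23 to 4.92) and at 50.9 CPM against no UMI at E19, at least 9.14-fold higher against a floor of 3 counts in the group. Both genes were at 2 CPM or less in the esophageal stroma.

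Guidance ligands and a matrix gene came next. Sema3a, a secreted repellent of axons, was at 63.1 and 1.11 CPM at E15 (log2 4.86, 2.94 to 7.93) and at 35.7 and 1.86 CPM at E19 (log2 3.29, 1.38 to 6.37). Slit2, a guidance ligand, had log2 ratios of 3.05 (1.72 to 4.74) and 3.09 (1.17 to 6.17). The noncoding Halr1 gave 3.74 at E15 and had no UMI in the E19 GE-SCJ cells, at least 10.1-fold higher in the esophagus, and the matrix gene Hmcn1 gave 3.55 and at least 6.83-fold. Sema3a, Hmcn1 and Slit2 were also at 151, 293 and 55.9 CPM in the E15 stroma. The fibroblast collagen gene Col1a1 differed between the regions in the squamous cells of cluster 10. It was at 303 CPM in the esophagus and 62.9 CPM in the GE-SCJ at E15, and at 116 and 65.3 CPM at E19. The part of stromal RNA in the ratios of these genes was not tested. Chil4, a chitinase-like protein gene, had the largest ratio at E15 (271 and 2.21 CPM, log2 6.36), but 792 of its 796 UMIs at E19 came from 1 cell and 153 of 266 at E15, so it describes few cells.

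Lower in the esophagus at both stages were Ifitm1, an interferon-induced membrane protein gene (50.9 against 458 CPM at E15, log2 −3.14, and 26.3 against 592 CPM at E19, log2 −4.46), Wfdc1 (−4.55 and −4.90), the retinol dehydrogenase gene Dhrs9 (−3.22 and −2.60), Sptssb (−2.70 and −2.44) and Ugt2b34 (−2.20 and −3.05). Igfbp2 was at 263 against 1033 CPM at E15 (log2 −1.97) and at 81.9 against 575 CPM at E19 (log2 −2.81), and Ass1, an enzyme of arginine synthesis, at 29.5 against 128 CPM and 32.2 against 234 CPM. The water channel gene Aqp4 had a wide interval at E15 (log2 −2.29, −5.54 to −0.02) and a log2 ratio of −6.70 at E19 (1.17 against 180 CPM). In the esophagus Aqp4 had 1 UMI at E15 and 2 at E19, and Wfdc1 had 1 and 6. Dhrs9 had 4 and 35 there, Sptssb 5 and 47 and Ugt2b34 8 and 17. Each of these genes reached the count minimum only with the GE-SCJ counts. The interval of Wfdc1 at E15 was −7.64 to −2.61. In columnar cells of the stomach Ugt2b34 was at 185 CPM at E15 and 177 CPM at E19, above its GE-SCJ squamous levels of 40.9 and 85.4 CPM. Sptssb was at 247 CPM there at E19, above 150 CPM in the GE-SCJ, but at 37.03 against 38.7 CPM at E15. Aqp4 was above its GE-SCJ level in the columnar cells at E15 only. Ifitm1, Wfdc1, Dhrs9, Igfbp2 and Ass1 were below their GE-SCJ levels there at both stages, with Igfbp2 at 117 and 39.9 CPM. Ifitm1 was at 571 CPM in the E19 esophageal stroma. Krt13 was within 2-fold between the regions at both stages (−0.42 and 0.37), and Krt4 was higher in the esophagus at both (1.23 and 1.20).

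Markers of other cell types were counted in the squamous cells too. The 7 fibroblast markers summed to 1872 CPM at E15 and 1360 CPM at E19, beside 1286 CPM in the immune cells, and the 12 columnar markers, led by Pgc, to 2904 and 1828 CPM, beside 2446 CPM. Of these, Agr2 (log2 −1.79), Tff2 (−1.55) and Pgc were at least 2-fold lower at E19 among the columnar markers, and Dcn (−1.01) among the fibroblast markers, whose median log2 ratio was −0.63, and −1.39 in cluster 10. The smooth muscle markers summed to 194 and 125 CPM (432 CPM in immune cells), and the immune, endothelial, neural and skeletal muscle markers to 58.5 CPM or less. The mesothelial list summed to 33.6 and 146 CPM, with Msln as its leading gene, the respiratory list to 198 and 347 CPM, led by Cbr2, and the ciliated list to 101 and 22.2 CPM. Foxj1, the factor that drives motile cilia, had 28 UMIs at E15 and 0 at E19. Among defining markers, Ptprc (immune) and Pecam1 (endothelial) had 0 UMIs at E15 and 4 each at E19, and Myog (muscle), Wt1 (mesothelium) and Tubb3 (neurons) had 0 at both stages, whereas Pdgfra (fibroblasts) had 13 and 19 and Gata4 (stomach) 8 and 9. The erythroid list summed to 243 CPM at E15 and 4347 CPM at E19, beside 9182 CPM in the immune cells, and 4 E19 cells held 441 to 2300 hemoglobin UMIs per 10000 against 19.01 or less in every other E19 cell. The part of these cells and of free RNA in the ratios was not tested, beyond the values given without them. Of the sex-linked genes, Xist was at 225 and 755 CPM and the Y-linked genes summed to 163 and 77.8 CPM, and in the esophageal stroma Xist was at 157 and 832 CPM and the Y-linked genes at 161 and 88.0 CPM. The pools of the stages thus differed in their mix of sexes, which cannot be told apart from the stage.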

How the data were processed

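Wild-type C57BL/6 tissue from 11 region and stage tags was run as 1 pooled 10x Genomics 3′ library. Per the labels and methods, the authors aligned reads with Cell Ranger 6.1.1 to mm10 and kept cells by genes, UMIs and mitochondrial share. The deposited counts are raw UMI counts of 19550 genes in 7808 cells, and the deposited percent of mitochondrial UMIs, cluster, cell type and phase were the authors' own. Tags agreed between the files for all cells. No doublet caller was run beyond the authors' filters.

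Counts were summed over cells of a group and divided by the group total (982469 UMIs at E15, 1709188 at E19). Genes with at least 100 UMIs over both stages were compared, and at least 2-fold apart was the call. With 1 sample per group there was no test and no p-value. Intervals were exact (Poisson, conditional binomial, Clopper-Pearson) at 95% and cover counting error only. Where cells were thinned, each was drawn to 5000 UMIs and shallower cells were left out (6 at E15, 20 at E19).

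Named genes were the 15 in each direction with the largest ratio and at least 2 times the immune level, 8 in each direction for region, 12 followers of Krt13 and of Krt5, and of each list the most abundant members and those 2-fold apart. Mitochondrial, ribosomal protein, hemoglobin and sex-linked genes were left out of the rankings, and 2 genes that the rule names are not reported here. The members and lists were chosen with earlier results of these data known. The computation was tested on simulated counts. Alternatives changed the cells, the scaling, the count minimum and the added UMI. Python 3.11.15, numpy 2.4.6, scipy 1.17.1 and pandas 2.3.3 were used.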

Additional observations from a re-analysis of the deposited data

How the results depend on the processing

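No paired analysis was possible because each stage and region is 1 pooled sample without replicates, and no replicate could be left out. The count of genes at least 2-fold higher at E19 (166 of 3943) and lower (134) was 28 and 33 of 2266 in cells with more Krt5 than Krt13 alone, 66 and 31 of 1103 with cells thinned to 5000 UMIs, and 415 and 859 of 9629 with a minimum of 20 UMIs, with the count minimum applied anew in each setting. It was 184 and 88 of 3943 when ribosomal protein, hemoglobin and mitochondrial genes did not count toward the library size, 135 and 108 of 3883 without the second label, 132 and 132 of 3608 with cluster 10 alone, 151 and 90 of 3612 without the top cell of each gene, and 156 and 99 as the mean of cells' own CPM. The region counts (69 higher, 52 lower) were 21 and 15 of 1696 after thinning. The share of E19 cells with both Mki67 and Top2a was 2.91% when 2 UMIs of each were asked for. The share with more Krt13 than Krt5 ran from 52.4 to 56.0% at E19 and from 17.2 to 20.3% at E15. Crct1 reversed to −0.044 without the second label and Sprr3 to −0.12 as the mean of cells' own CPM. Of the 103 named or listed genes at least 2-fold apart, 44 fell short of it in at least 1 alternative other than the choice of cells with more Krt5, 29 of those higher and 15 of those lower at E19. Beside those given with the results, they include Cbr2, Cdkn1a, Cldn3, Krt19, Ly6d, Nectin4, S100a6, S100a10 and H2-D1 among the higher and Bex4, Btg2, Fzd3, Jun, Kif23, Nasp, Peg3, Skil, Sox4, Sox9, Spry1 and Tpx2 among the lower. The cause was not tested. With 64 and 123 cells, genes below the count minimum could not be compared, and differences between mice cannot be told apart from stage.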
